A study of Mus musculus with 14 samples.

Results

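Gene expression was compared between the whole-tissue RNA of brain and of skeletal muscle from wild-type (WT) mice of the strain C57BL6 at 1 day of age. The comparison takes the 4 arrays of WT brain and the 3 arrays of WT muscle, 7 of the 14 arrays of the series, as the sample titles assign them. The other 7 arrays, 4 of brain and 3 of muscle, came from pups of that age whose Cugbp1 gene, today called Celf1, was disrupted by a gene trap. They were made from embryonic stem cells with the trap vector inserted ahead of the start codon, and these knockout (KO) arrays serve here only as a check on separate samples. Neither WT group carries a transgene. The labels do not say whether brain and muscle came from the same animals, which muscle or brain region was taken, or the sex of the pups.

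Each array was an Agilent mouse array read in 1 colour (Cy3), and the deposited values are linear intensities. A level is the log2 intensity minus the 75th percentile of the named probes of that array, and each of 21893 genes is represented by 1 probe, so a level of 0 is that of a fairly bright probe. Differences are brain minus muscle in log2 units, positive where brain is higher, and they were tested with limma and Benjamini-Hochberg adjustment over all genes at an adjusted p of 0.05. Levels of different probes are not comparable, so only differences are set side by side between genes. A background level was read on each array from 1333 olfactory and vomeronasal receptor genes, as the 95th percentile of their intensities, and lay between 26.9 and 55.4 on the 7 arrays. Where all arrays of the dimmer tissue lay at or under background, the difference is given as a lower bound ("at least") against the background level. List medians and ranges, counts past a fold and the figures use the differences as read, without such bounds. Where many members lay under background in 1 tissue, these sizes are therefore not measured ones.

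Skeletal muscle fibres are fused cells filled with sarcomeres, in which myosin thick filaments pull on actin thin filaments when calcium leaves the sarcoplasmic reticulum. Neonatal muscle still carries embryonic and perinatal myosins and is forming its neuromuscular junctions. The newborn brain holds young neurons that are growing axons and synapses, radial glia and astrocytes, and oligodendrocyte precursors, while most myelin is made later. Both tissues contain vessels, blood cells, macrophages and connective tissue. In such bulk samples, fewer cells of a type and less RNA per cell cannot be told apart.

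More than 1 gene in 2 differed between the tissues. Of 21893 genes, 12011 (54.9%) passed the threshold, 5548 (25.3%) with higher levels in brain and 6463 (29.5%) with higher levels in muscle. Past 8-fold, 1729 called genes were higher in brain and 1284 in muscle, and past 64-fold 448 and 247. These counts include genes whose dimmer tissue lay under background, where the fold is not a measured size. When the test asked for a difference beyond 2-fold instead of any difference, 2996 genes (13.7%) were higher in brain and 2968 (13.6%) in muscle. The 7 arrays did not overlap between tissues for 12507 genes (57.1%). Above background on all 4 brain arrays and on none of the muscle arrays lay 1079 genes, and 467 showed the opposite pattern, while 5039 lay at or under background throughout.

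The split between the directions depends on the reference level. Of the called genes, 46.2% were higher in brain; centring on the cytosolic ribosomal protein genes, which were themselves brighter in muscle, shifted the median of all genes by 0.82, and 76.2% of calls (11363 genes against 3550) were then higher in brain. Without scaling the median moved by 0.21 and 53.5% were higher in brain. Small differences in either direction are therefore relative to the chosen scale, whereas those past 8-fold exceed these shifts. The median difference of all genes was -0.04, and the median standard deviation (SD) of a level was 0.23 within brain and 0.38 within muscle.

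**Figure D1:**
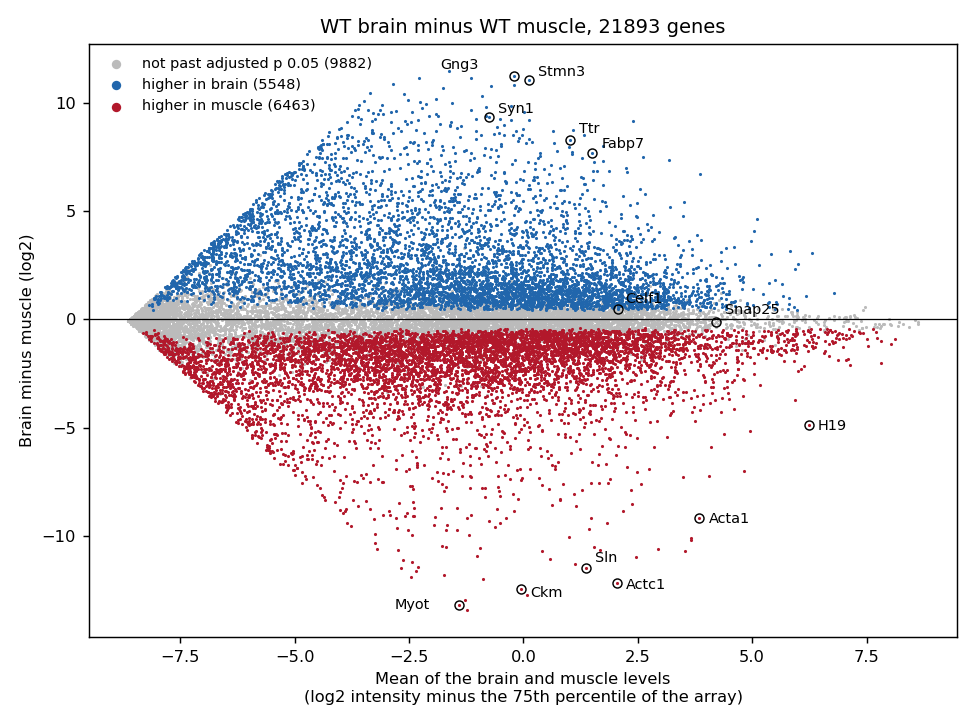
Each point is 1 of 21893 genes, with the mean of its brain and muscle levels (log2 intensity minus the 75th percentile of the array) on the x axis and brain minus muscle (log2) on the y axis. Blue points (5548) passed an adjusted p of 0.05 with higher levels in brain and red points (6463) with higher levels in muscle, and circled genes are named in the text.

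Arrays of 1 tissue correlated across genes at Pearson's r of 0.986 to 0.994 in brain and 0.968 to 0.983 in muscle, against 0.816 to 0.836 between tissues; genes are not independent replicates, and these values only describe the arrays. Defining markers matched the labelled tissues. All 20 listed genes of the neuronal cytoskeleton were higher in brain, and all 15 measured markers of satellite cells and muscle fibres were higher in muscle. The 20 were above background on every brain array, and 14 of them also on every muscle array. Some libraries stood apart. The third muscle array had the highest mean level of the erythroid list and of the hypoxia list (2.43 against 0.48 and -0.20), brain array 4 held pituitary transcripts, and brain arrays 3 and 4 had higher hypoxia list levels (0.64 and 0.81) than brain arrays 1 and 2 (-0.53 and -0.82). The part of these differences in the results was not tested, and values that rest on 1 array are given with it.

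Celf1, the gene trapped in the KO mice, encodes an RNA-binding protein that regulates splicing and mRNA decay. Its probe read 4854, 6961, 5318 and 5969 on the WT brain arrays and 3104, 4696 and 3099 on the WT muscle arrays. The same probe read 1637 to 2086 on the KO brain arrays and 498 to 758 on the KO muscle arrays, all below the WT arrays of the same tissue. Celf1 was higher in WT brain by 0.47 ± 0.16 (SE), adjusted p = 0.0366 by limma, and adjusted p = 0.0887 with the array number as a block. It did not pass when any 1 array other than muscle array 2 was left out (adjusted p = 0.0702 to 0.0961). The groups did not overlap, although the brightest muscle reading (4696) lay close to the dimmest brain reading (4854). The mean of all its probes gave -0.15 (adjusted p = 0.437). The other probes of the gene did not all show the difference: one gave 0.37 (adjusted p = 0.116) and the other -1.30, higher in muscle (adjusted p = 0.00274). That last probe read 472 to 515 in brain and 859, 936 and 1434 in muscle.

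Among 28 measured genes of RNA-binding protein families that control splicing (CELF, MBNL, RBFOX, PTBP, NOVA and ELAVL), 16 were higher in brain, 7 in muscle and 5 did not pass, with a median of 0.98. Over all genes, 25.3% were called higher in brain and 29.5% in muscle. All 5 other CELF members were also higher in brain. Celf5 read 19638 to 26378 in brain and 47.3, 49.2 and 57.1 in muscle, a difference of 8.53 ± 0.17. Celf2, which many tissues express, differed by 1.14 ± 0.14, Celf6 by 6.08 ± 0.26 and Celf4 by 5.78 ± 0.22, and Celf3, at or under background on all muscle arrays, was at least 203-fold higher in brain. Elavl3, a neuronal Hu protein that binds AU-rich RNA, read 26411 to 36225 in brain against 13.3, 14.6 and 16.1 in muscle, at least 696-fold higher. Rbfox3, the antigen of the NeuN antibody, was higher in brain by 7.84 ± 0.57.

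The muscleblind protein Mbnl1, which acts against CELF proteins on many muscle exons, went the other way, with intensities of 416 to 588 in brain and 3329.5, 5075 and 3966 in muscle. Its difference was -3.32 ± 0.17 (adjusted p = 2.08e-06), and all brain arrays lay below all muscle arrays. Ptbp3, a relative of the polypyrimidine tract-binding protein Ptbp1, was higher in muscle at -1.98 ± 0.17. Elavl1, the Hu member that most cells express, was also called higher in muscle (-2.01 ± 0.19), but its other probe was called higher in brain (2.47 ± 0.21), so its direction depends on the probe. Rbfox1, a splicing regulator used by both neurons and muscle, differed by 0.81 ± 0.24 in favour of brain (adjusted p = 0.0213; 0.0675 with the block).

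All 20 measured genes of the neuronal cytoskeleton and growth cone were higher in brain, with a median difference of 6.63 and a range of 1.42 to 11.05. The upper end is that of Stmn3, taken against muscle readings at or under background, and is not a measured size. Stmn3, a stathmin that regulates microtubules in neurons, read 54066, 63835, 54872 and 59629.8 in brain and 17.9, 21.0 and 35.3 in muscle. All muscle values lay at or under background, so Stmn3 was at least 1366-fold higher in brain (adjusted p = 1.11e-07). Tubb3, the neuronal beta-tubulin, read 33796, 35120.1, 30119.6 and 30825 in brain and 27.7, 30.9 and 57.4 in muscle, a difference of 9.58 ± 0.29. Stmn2, a growth-cone stathmin, and Kif5c, a neuronal kinesin heavy chain, were higher in brain by 8.01 ± 0.25 and 7.13 ± 0.19.

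The largest differences and lower bounds in favour of brain included further genes. Rtn1, a reticulon of the neuronal endoplasmic reticulum, had the largest difference in favour of brain among genes above background on all 7 arrays, at 9.17 ± 0.23, with intensities of 128579 to 158737 in brain and 155, 343 and 194 in muscle. Gng3, a neuronal G protein gamma subunit, was at least 1163-fold higher in brain and read 40788 to 63384 there against 14.3 to 20.1 in muscle. Camkv (8.72 ± 0.23), a kinase-like protein of synapses, Nsg2 (8.52 ± 0.30), a protein of neuronal endosomes, and Lmtk3 (8.36 ± 0.22), a membrane kinase, followed, as did the secretory granule protein Chga at at least 514-fold. Syt5, a synaptotagmin, differed by 8.34 ± 0.46, Caly, a neuronal vesicle protein, by 8.15 ± 0.29 and Sult4a1, a sulfotransferase-like protein of brain, by 8.01 ± 0.30. Lower bounds were 1001-fold for Tmem130, 586-fold for Vstm2l and 350.1-fold for Tmem145. For all of these genes the brain and muscle arrays lay far apart without overlap.

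**Figure D2:**
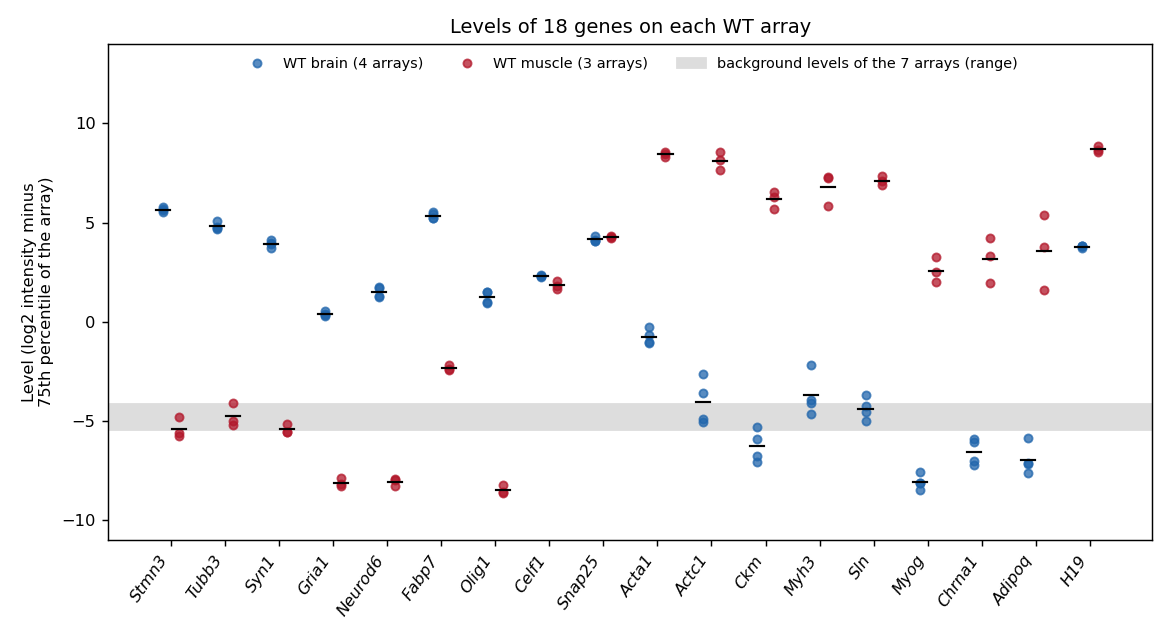
Levels (log2 intensity minus the 75th percentile of the array) of 18 genes on each WT array are plotted, blue for the 4 brain arrays and red for the 3 muscle arrays, with black bars for means and a grey band for the range of background levels. Brain genes such as Stmn3, Syn1 and Gria1 fall to or below the band in muscle, contractile genes such as Acta1 and Myh3 are higher in muscle, Snap25 and Celf1 lie close together, and Adipoq spreads widely over the muscle arrays.

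Of 20 measured genes of synaptic vesicles and transmitter release, 18 were higher in brain, with a median of 4.03. Syn1, which tethers synaptic vesicles to actin, read 13052, 21906, 16461 and 20074 in brain and 25.1, 24.2 and 20.5 in muscle, at least 413-fold higher in brain. Syt1, the calcium sensor of fast release, was at least 460-fold higher, Cplx1, which clamps the fusion machinery, at least 172-fold and Syt4, a calcium-independent relative of Syt1, at least 41.3-fold. None of these 4 genes rose above background on any muscle array.

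The remaining 2 vesicle genes were not called higher in brain by their chosen probes. Rab3c, a small GTPase of synaptic vesicles, was called higher in muscle at -2.54 ± 0.20 by its chosen probe, which read 5046 to 9061 in brain and 35506, 37812 and 36742 in muscle. Another Rab3c probe read 5383 to 6328 in brain and 2.84, 2.89 and 2.53 in muscle, where all 3 readings lay under background. It was called higher in brain (adjusted p = 1.04e-07 by limma), with no size given. Snap25, the SNARE protein of the presynaptic membrane, was chosen for mention after its values were seen. Its 1 probe read 17148, 23521, 18639 and 23398 in brain and 16484, 22955 and 18945 in muscle, and the difference of -0.12 ± 0.15 did not pass (adjusted p = 0.548). For Rab3c the direction therefore depends on the probe, and for Snap25 no second probe was present.

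Genes of glutamate and GABA transmission were higher in brain in 21 of 23 cases, with a median of 5.69. On all muscle arrays 12 of the 23 lay at or under background, so the median is not a measured size. The AMPA receptor subunit Gria1 read 1252, 1828, 1582 and 1454 in brain and 3.04, 4.88 and 3.11 in muscle, at least 35.7-fold higher, and Gria2 was at least 23.1-fold higher. The vesicular glutamate transporter Slc17a6 was at least 52.1-fold higher in brain. Slc12a5, the potassium-chloride cotransporter that lowers neuronal chloride, differed by 6.59 ± 0.20. Its counterpart Slc12a2, which imports chloride, was higher in muscle at -1.55 ± 0.26 and was the only member of the list called in that direction.

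All 16 measured ionotropic glutamate receptor genes were higher in brain, with a median of 5.52, as were 10 of 16 GABA-A receptor genes (median 3.48, led by Gabrb1 at at least 57.5-fold) and 5 of 7 metabotropic glutamate receptors, with Grm5 at least 184-fold higher. Of these 3 families, 9 of 16, 9 of 16 and 6 of 7 genes lay at or under background on all muscle arrays, so the medians are not measured sizes. Of 36 voltage-gated potassium channel genes, 24 were higher in brain and 7 in muscle, among the latter Kcnq1 (-3.22 ± 0.28) and Kcna4 (-2.28 ± 0.25). Of 25 voltage-gated calcium channel genes, 19 were higher in brain and 6 in muscle. Cacng2, an AMPA receptor auxiliary protein, was at least 75.1-fold higher in brain by its chosen probe, while its other probe did not pass (0.51, adjusted p = 0.381). Cacng1, a subunit of the muscle channel, differed by -6.30 ± 0.46. Among the 21 acetylcholine receptor genes, 8 were higher in brain, 7 in muscle and 6 did not pass, with a median of 0.12. Over all genes, 25.3% and 29.5% were called higher in brain and in muscle. At or under background lay 9 of the 21 on all brain arrays and 11 on all muscle arrays. Those higher in brain included the muscarinic receptor Chrm1 (at least 16.1-fold) and the neuronal subunit Chrnb2 (at least 19.6-fold).

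Sodium channel genes gave 6 of 8 higher in brain, including Scn1a at at least 65.8-fold. Scn8a, a channel of axon initial segments and nodes, was called higher in muscle by its chosen probe (-2.54 ± 0.22; 402 to 457 in brain and 1877, 1986 and 2594 in muscle). Its other probes read 46.6 to 64.2 and 337 to 409 in brain. In muscle they read 2.87 to 3.11 and 8.21 to 13.2, all under background, so no size is given. Both were called higher in brain (adjusted p = 2.58e-06 and 7.04e-07 by limma). Such disagreement was not rare: of 4189 called genes with another probe, 2651 had another probe called the same way and 369 had one called the opposite way.

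Of 27 genes of axon guidance and neural adhesion, 21 were higher in brain and 5 in muscle, against 25.3% and 29.5% of all genes, with a median of 2.61. Nfasc, an adhesion protein of nodes and initial segments, was higher in brain by 7.37 ± 0.29, Cntn1, a glycolipid-anchored adhesion protein, by 5.61 ± 0.28 and Nlgn1, a postsynaptic partner of neurexins, by 4.60 ± 0.30. Ncam1, the neural cell adhesion molecule that muscle also makes, was higher in brain by 3.81 ± 0.21 by its chosen probe, but 2 other probes did not pass, at 0.68 (adjusted p = 0.108) and -0.91 (adjusted p = 0.0579). Sema6d, a transmembrane semaphorin, was called higher in muscle at -2.09 ± 0.29, while its other probe gave 0.94 ± 0.36 and did not pass (adjusted p = 0.0568). Calls in favour of muscle for the ephrin receptor Epha5 (-1.63 ± 0.26) and the guidance cue Ntn1 (-1.53 ± 0.23) were contradicted by other probes of these genes, which were called higher in brain.

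Transcription factors that pattern brain regions were higher in brain in 24 of 29 cases, with a median of 6.39, none was higher in muscle, and 5 did not pass. On all muscle arrays 17 of the 29 lay at or under background, so the median is not a measured size. Neurod6, a factor of cortical excitatory neurons, read 3281, 4564, 2647 and 2741 in brain and 2.86, 4.77 and 3.89 in muscle, at least 76.1-fold higher in brain. Dlx1, a factor of forebrain interneurons, was at least 29.5-fold higher by its chosen probe (its other probe did not pass, at 0.78, adjusted p = 0.183), Neurod1 at least 8.34-fold, and Lhx2, a LIM homeobox factor of the forebrain, differed by 7.80 ± 0.19. No brain array overlapped a muscle array for these genes.

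Of 19 markers of neural progenitors, radial glia and astrocytes, 15 were higher in brain and 4 did not pass, with a median of 4.71. Bcan, a proteoglycan of the brain matrix, read 15388 to 22859.7 in brain and 3.16, 9.16 and 7.80 in muscle, at least 473-fold higher. Fabp7, the fatty acid-binding protein of radial glia, read 45802, 60093, 40558 and 43759 in brain and 161, 219 and 212 in muscle, a difference of 7.70 ± 0.17. Mlc1, a membrane protein of astrocyte endfeet, was at least 195-fold higher.

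Of 15 genes of the oligodendrocyte list, 7 were higher in brain and 3 in muscle, against 25.3% and 29.5% of all genes. The other 5 did not pass, and the median was 0.64. The lineage factors Olig1 (at least 64.4-fold) and Olig2 (at least 7.17-fold) and the precursor receptor Gpr17 (3.03 ± 0.25) led the calls in brain. Pdgfra, which precursors share with connective tissue cells, was higher in muscle at -1.72 ± 0.18 and read 947 to 1345 in brain and 2454, 3502 and 3861 in muscle. The myelin genes Mal (-2.36 ± 0.40) and Mog (-0.90 ± 0.26) were also called higher in muscle.

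Neuropeptide and monoamine genes were higher in brain in 25 of 29 cases (median 3.67), and 13 of the 29 lay at or under background on all muscle arrays. Somatostatin, Sst, was at least 196-fold higher and corticotropin-releasing hormone, Crh, at least 5.54-fold, while Tac1, the substance P precursor, differed by 7.27 ± 0.35 and prodynorphin, Pdyn, by 6.29 ± 0.24. Ddc, the decarboxylase of dopamine and serotonin synthesis, was called higher in muscle at -2.46 ± 0.42, while its other probe gave 0.03 ± 0.40 and did not pass (adjusted p = 0.961). The hypothalamic hormones Avp and Pmch were at least 38.3-fold and 9.48-fold higher in brain. Avp varied over the brain arrays, from 614 to 4580.

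Pituitary transcripts were nearly confined to 1 array. Growth hormone, Gh, chosen for mention after its values were seen, read 6.14, 8.76 and 11.1 on brain arrays 1 to 3 and 21413 on brain array 4. Pomc, the precursor of corticotropin, read 443, 665, 528 and 30361 in the same order, and prolactin, Prl, 6.18, 3.94, 3.50 and 186. Gh (adjusted p = 0.414), Pomc (adjusted p = 0.0814) and Prl (adjusted p = 0.325) did not pass, and with the block Pomc passed (adjusted p = 0.00427). The summed intensity of the 11 pituitary and hypothalamus markers was 2079.9 to 6762 on the first 3 brain arrays, 57216 on brain array 4 and 253 to 362 in muscle.

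Choroid plexus transcripts were higher in brain for most markers. Ttr, the transthyretin carrier of the choroid plexus, read 33008, 49574, 49789 and 35935 in brain and 38.8, 58.2 and 644 in muscle, a difference of 8.30 ± 0.88 (adjusted p = 0.000114), with the third muscle array above the other two but far below every brain array. Of 11 markers of choroid plexus and ependyma, 7 were higher in brain, among them Foxj1 (at least 9.51-fold), the regulator of motile cilia, and the folate receptor Folr1 (3.81 ± 0.32). Ptgds, the prostaglandin D synthase of meninges and choroid plexus, read 68877 to 109139 in brain and 337, 604 and 444 in muscle (7.52 ± 0.20). The water channel Aqp1 was higher in muscle at -5.82 ± 0.31.

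Every measured gene of the thick filament and M-line (19 of 19) was higher in muscle, with a median of -8.84, as were 19 of 21 thin-filament genes (median -7.67) and 28 of 28 genes of the Z-disc, costamere and dystrophin complex (median -6.57). Acta1, the skeletal alpha-actin, read 466, 1178, 692 and 583 in brain and 277777, 435732 and 340697 in muscle, a difference of -9.19 ± 0.24 (adjusted p = 1.28e-07). Actc1, the cardiac alpha-actin that young skeletal muscle also makes, read 81.9, 225, 36.7 and 35.3 in brain and 254598, 432234 and 195445 in muscle, and its difference of -12.17 ± 0.60 was the largest among genes above background on all 7 arrays. The brain arrays were above background for both actins, and the second was the highest of them.

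Developmental myosins were higher in muscle by large margins. Myh3, the embryonic myosin heavy chain, read 65.3, 308, 63.8 and 46.8 in brain and 132818, 182428 and 55366 in muscle, a difference of -10.50 ± 0.62, and was lowest among the muscle arrays on the third. Myh8, the perinatal myosin, read 294 to 1201 in brain and 369885, 513720.00 and 376722 in muscle (-10.09 ± 0.41). The fast troponins Tnnt3 (-10.95 ± 0.30), Tnni2 (-10.18 ± 0.28) and Tnnc2 (-10.69 ± 0.52) and the light chain Myl1 (-10.62 ± 0.30) moved with them. Myot, myotilin of the Z-disc, read 3.62 to 6.70 in brain and 26217, 56589 and 32495 in muscle, at least 1413-fold higher. Myoz2, a calsarcin of the Z-disc, was at least 851-fold higher and Mybpc2, the fast myosin-binding protein C, at least 781-fold. Myom2, a myomesin of the M-line, differed by -11.28 ± 0.33. Smpx, a small protein of the muscle cytoskeleton, was at least 428-fold higher and Fitm1, a lipid droplet protein of muscle, at least 416-fold.

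Of 24 genes of excitation-contraction coupling, 22 were higher in muscle, with a median of -5.19. Sln, sarcolipin, which regulates the calcium pump, read 33.7 to 75.3 in brain and 104547, 185543 and 132400.00 in muscle (-11.49 ± 0.31). Cacna1s, the voltage sensor of the transverse tubule, differed by -8.06 ± 0.27, Hrc, a calcium-binding protein of the reticulum, by -7.56 ± 0.21, and Trdn, triadin, was at least 685-fold higher in muscle. The lower bound for muscle was largest for Atp1b4, a muscle protein of the sodium pump beta family, at 1730.5-fold, with readings of 3.11 to 14.3 in brain and 36511, 86183 and 28159 in muscle.

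Myogenic regulators were higher in muscle in 20 of 24 cases (median -3.52). Myog, which drives terminal differentiation, read 5.25, 5.05, 3.10 and 4.26 in brain and 3517, 10955 and 5467 in muscle, at least 231-fold higher. Myf6 was at least 267-fold and Myod1 at least 34.1-fold higher, and Smyd1, a methyltransferase of muscle, differed by -5.05 ± 0.20. Pax3, which marks both muscle progenitors and the dorsal neural tube, was higher in brain (2.62 ± 0.25; 272 to 525 in brain and 36.0, 58.9 and 66.3 in muscle).

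At the neuromuscular junction, 10 of 15 genes were higher in muscle and 3 in brain (median -3.09). The acetylcholine receptor subunits Chrna1 and Chrnd were at least 347-fold and 292-fold higher in muscle; Chrna1 read 7.43 to 17.4 in brain and 3455, 11428 and 18159 in muscle. Colq, the collagen tail of synaptic acetylcholinesterase (-5.35 ± 0.23), and Rapsn, which clusters the receptor (-3.09 ± 0.19), were also higher in muscle. The 3 genes higher in brain were the neuregulin Nrg1 (4.25 ± 0.34) and agrin, Agrn (1.68 ± 0.17), both of which nerves supply to the junction, and the enzyme Ache (2.13 ± 0.35).

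Promoter letters are shown for 6 genes that carry this contrast, 4 higher in muscle and 2 higher in brain. The sequences are from RefSeq (GRCm38.p6), written 5′ to 3′ on the gene's strand and run across the start of transcription, each 300 bases long. In the muscle genes capitals mark matches on either strand to the E-box CAGCTG bound by MyoD-type factors, the CArG box of serum response factor and the MEF2 site. In Syn1 and Tubb3 they mark CAGCACC or GGACAG, the core parts of the RE1 element bound by the repressor REST.
Acta1, chr8:123894726-123895025, minus strand: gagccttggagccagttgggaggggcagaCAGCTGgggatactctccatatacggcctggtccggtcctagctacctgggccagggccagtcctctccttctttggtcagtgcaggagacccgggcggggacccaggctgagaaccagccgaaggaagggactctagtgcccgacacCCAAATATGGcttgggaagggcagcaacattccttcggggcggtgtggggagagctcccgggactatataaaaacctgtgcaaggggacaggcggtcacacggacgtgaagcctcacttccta
Chrna1, chr2:73580289-73580588, minus strand: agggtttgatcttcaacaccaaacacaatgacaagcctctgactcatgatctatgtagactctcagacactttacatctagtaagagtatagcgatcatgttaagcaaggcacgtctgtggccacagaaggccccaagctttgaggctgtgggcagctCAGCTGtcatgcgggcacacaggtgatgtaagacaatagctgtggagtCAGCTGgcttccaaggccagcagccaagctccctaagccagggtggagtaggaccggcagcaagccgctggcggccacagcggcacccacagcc
Myoz2, chr3:123034938-123035237, minus strand: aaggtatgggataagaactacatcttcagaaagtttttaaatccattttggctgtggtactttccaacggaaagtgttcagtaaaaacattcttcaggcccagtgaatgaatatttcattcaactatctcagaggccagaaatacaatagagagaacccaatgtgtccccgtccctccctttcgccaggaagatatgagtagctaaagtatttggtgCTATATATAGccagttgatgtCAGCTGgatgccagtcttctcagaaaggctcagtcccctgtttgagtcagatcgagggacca
Pgam2, chr11:5803747-5804046, minus strand: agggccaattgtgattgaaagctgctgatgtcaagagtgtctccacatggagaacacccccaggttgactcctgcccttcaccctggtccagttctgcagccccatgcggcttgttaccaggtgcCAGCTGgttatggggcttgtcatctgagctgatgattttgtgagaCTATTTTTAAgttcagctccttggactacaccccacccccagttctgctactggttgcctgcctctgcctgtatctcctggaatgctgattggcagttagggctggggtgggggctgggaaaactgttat
Syn1, chrX:20920869-20921168, minus strand: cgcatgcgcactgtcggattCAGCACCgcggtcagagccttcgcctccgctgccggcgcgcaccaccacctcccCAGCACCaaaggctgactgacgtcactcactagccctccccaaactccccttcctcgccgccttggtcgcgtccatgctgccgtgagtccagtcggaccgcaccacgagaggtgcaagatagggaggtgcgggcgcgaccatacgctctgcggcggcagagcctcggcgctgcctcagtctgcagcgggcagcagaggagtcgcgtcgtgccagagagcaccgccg
Tubb3, chr8:123411303-123411602, plus strand: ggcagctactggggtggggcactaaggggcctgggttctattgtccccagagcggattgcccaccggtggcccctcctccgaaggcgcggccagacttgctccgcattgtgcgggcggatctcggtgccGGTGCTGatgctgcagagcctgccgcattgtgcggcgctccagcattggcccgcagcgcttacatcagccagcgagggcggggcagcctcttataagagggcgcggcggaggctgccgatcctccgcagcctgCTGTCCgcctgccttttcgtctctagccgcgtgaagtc
Each of the 6 promoters held 2 matches and none of them overlapped. A match is a run of letters, not shown to be a bound site. The RE1 parts of Tubb3 lay apart, at bases 130 and 263, and Syn1 held CAGCACC alone. Other genes named here had no match, so the 6 shown do not stand for all of them. Promoters of Myog, Myh3, Tnnc2 and Ryr1 held no E-box, CArG box or MEF2 site, and that of Stmn3 held neither RE1 part. Promoters were available for 17196 tested genes. The E-box was present for 18.0% of these, for 23.4% of 930 genes called higher in muscle past 8-fold and for 21.4% of 1316 called higher in brain past 8-fold. The MEF2 site was present for 3.08%, 7.53% and 2.13% of the same groups, the CArG box for 1.67%, 3.33% and 1.22%, and both RE1 parts together for 2.15%, 2.47% and 3.95%. Genes of the brain group had more promoters each (1.32 on average, against 1.22 over all genes and 1.23 in the muscle group). These shares are descriptions without a test.

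Enzymes and carriers that exist as a general or neural isoform and a muscle isoform mostly went in opposite directions. Of 23 genes listed as the brain partner, 15 were higher in brain, 3 in muscle and 5 did not pass (median 2.33). Of 22 listed as the muscle partner, 20 were higher in muscle, 1 in brain and 1, Camk2a, did not pass (median -5.67). Both lists also hold genes that are not isoforms of the same enzyme or carrier, such as Rbfox3 and Rbfox1 or Atp2b2 and Atp2a1. These counts are therefore not of such isoforms alone. Creatine kinase was divided. Its brain form Ckb read 17697, 26937, 20427 and 21790.2 in brain and 886, 1302 and 1669 in muscle (3.90 ± 0.21), and its muscle form Ckm read 7.24, 35.7, 18.3 and 10.8 in brain and 44706, 106702 and 77242 in muscle (-12.43 ± 0.45), above background on 1 of 4 brain arrays. The mitochondrial muscle form Ckmt2 was at least 1431-fold higher in muscle.

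In glycolysis, the neural enolase Eno2 (4.78 ± 0.47) stood against the muscle enolase Eno3 (-7.23 ± 0.19), the aldolase Aldoc (4.79 ± 0.34) against Aldoa (-2.01 ± 0.30) and the glycogen phosphorylase Pygb (2.26 ± 0.25) against Pygm (-6.58 ± 0.23). Phosphofructokinase split into Pfkp (2.84 ± 0.48) and Pfkm (-1.88 ± 0.24), and lactate dehydrogenase into Ldhb (0.58 ± 0.16; adjusted p = 0.0173, 0.0556 with the block) and Ldha (-1.29 ± 0.36; another probe did not pass, at -0.83, adjusted p = 0.116). Pgam1, the general phosphoglycerate mutase, had a difference of 0.92 ± 0.43 that did not pass (adjusted p = 0.112), while the muscle form Pgam2 read 118 to 236 in brain and 69403, 142134 and 78962 in muscle (-9.40 ± 0.24). The glucose transporters Slc2a3 of neurons and Slc2a4 of insulin-responsive tissue differed by 3.34 ± 0.92 and -5.46 ± 0.32. Slc2a3 was read at 181 and 220.1 on 2 muscle arrays and at 2774 on the third, and the call was lost without muscle array 1 (adjusted p = 0.0643) or 2 (adjusted p = 0.0615).

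Several pairs did not divide. Hexokinase 1, Hk1, was called higher in muscle by its chosen probe (-1.38 ± 0.19), whereas both of its other probes were called higher in brain (2.47 ± 0.37 and 2.96 ± 0.41), and its partner Hk2 was higher in muscle (-5.20 ± 0.78; 78.8 and 100 on the first 2 brain arrays, 480 and 509 on the others, and 7051, 4051 and 10203 in muscle). The adenine nucleotide carriers Slc25a5 and Slc25a4 were both higher in muscle, at -1.87 ± 0.32 and -1.88 ± 0.19. The general cytochrome oxidase subunits Cox6a1 (0.05 ± 0.38) and Cox8a (-0.52 ± 0.22) did not pass and Cox7a2 was higher in muscle (-1.22 ± 0.15), while their muscle forms Cox6a2 (-8.53 ± 0.21), Cox8b (-11.04 ± 0.36) and Cox7a1 (-5.89 ± 0.35) were all higher in muscle. The ryanodine receptors Ryr2 (at least 10.2-fold higher in brain) and Ryr1 (-4.07 ± 0.26), the AMP deaminases Ampd2 (1.04 ± 0.29) and Ampd1 (at least 347-fold higher in muscle) and the chloride channels Clcn2 (2.33 ± 0.17) and Clcn1 (-1.81 ± 0.32) did divide. Beta-actin, Actb, did not pass (0.59 ± 0.28, adjusted p = 0.11).

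**Figure D3:**
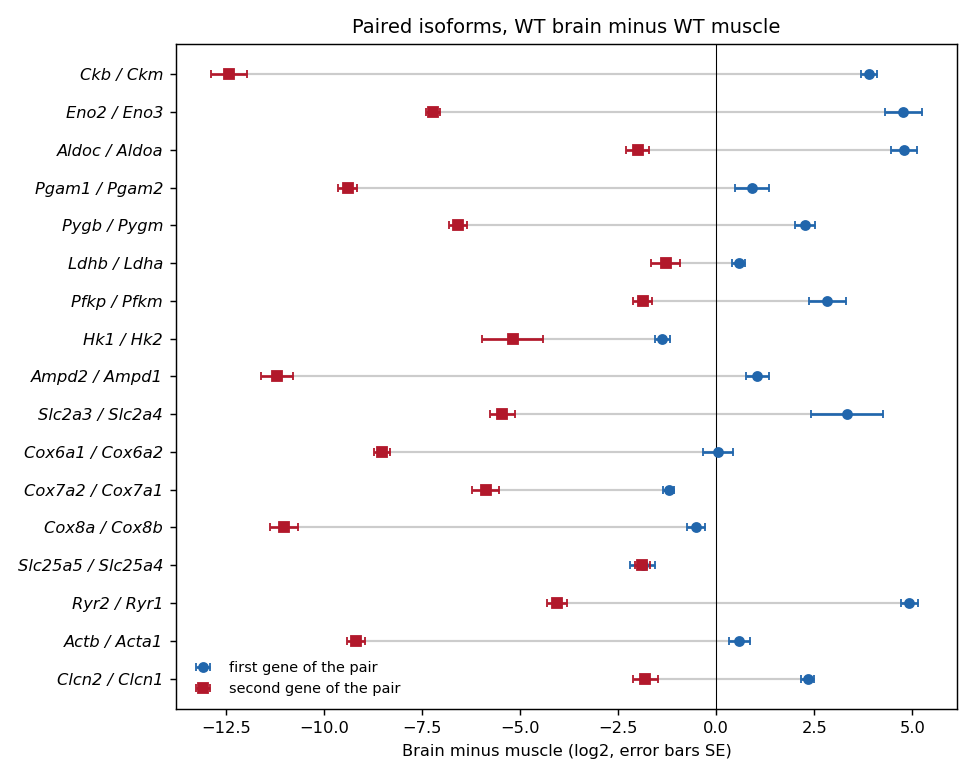
Brain minus muscle (log2, error bars SE) is plotted for 17 isoform pairs, the first gene as a blue circle and the second as a red square. Ckb and Ckm lie at 3.90 and -12.43, with Ckm at or under background on 3 of 4 brain arrays; Slc25a5 and Slc25a4 coincide near -1.9.

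Oxidative metabolism was higher in muscle as a group. All 20 genes of the TCA cycle (median -2.15), 24 of 28 genes of fatty acid uptake and oxidation (median -3.32), 33 of 35 complex I subunits (median -1.24) and 17 of 18 ATP synthase subunits (median -1.45) were called in that direction, against 29.5% of all genes. Pdha1, of pyruvate dehydrogenase, read 1100.1 to 1938 in brain and 9968, 12378 and 8011 in muscle (-2.98 ± 0.19). Idh2, the mitochondrial isocitrate dehydrogenase, differed by -2.79 ± 0.20, Sdha of succinate dehydrogenase by -2.32 ± 0.17 and Cpt1b, the muscle carnitine palmitoyltransferase, by -5.49 ± 0.23. Cpt1c, the neuronal relative of Cpt1b, was the 1 gene of the fatty acid list higher in brain (2.78 ± 0.23). After centring on ribosomal protein genes, the number of complex I subunits higher in muscle dropped to 13 and the TCA cycle genes to 15.

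Fat-cell transcripts were present in the muscle samples. Of 15 adipocyte and brown fat markers, 13 were higher in muscle (median -6.38), and their summed intensity was 854936, 277827 and 224894 on the muscle arrays against 2139 to 4779 in brain. Adipoq, the hormone adiponectin, read 5.53 to 17.0 in brain and 37315, 15532 and 2914 in muscle, at least 462-fold higher. Fabp4, the fatty acid-binding protein of adipocytes and endothelium, read 287919, 117848 and 61016 in muscle (-10.66 ± 0.54), and Cidec, a lipid droplet protein, was at least 321-fold higher. Pck1, the phosphoenolpyruvate carboxykinase that fat also uses, was at least 429-fold higher and Cd36, a fatty acid transporter, at least 238-fold. These readings were highest on the first muscle array. The share of such transcripts in the difference of the fatty acid list was not tested.

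Genes of fibrillar collagen and matrix were higher in muscle in 27 of 28 cases (median -4.26). Postn, periostin, read 102 to 200 in brain and 42037, 51968 and 38351 in muscle (-8.61 ± 0.20), and Col14a1, a fibril-associated collagen, differed by -8.30 ± 0.18. Col3a1 read 2136 to 3726 in brain and 119575 to 148216 in muscle (-5.87 ± 0.23). Tenascin C, Tnc, was higher in brain (1.24 ± 0.35, adjusted p = 0.0183; 0.0826 with the block).

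Vessel markers were higher in muscle in 16 of 22 cases (median -2.08), including the endothelial cadherin Cdh5 (-4.05 ± 0.23). The 3 higher in brain were transporters of the blood-brain barrier, namely Slco1c1 (3.49 ± 0.16), Mfsd2a (5.45 ± 0.27) and Slco1a4 (at least 1.86-fold). Mfsd2a, which carries lysophosphatidylcholine into brain, read 2127 to 3297 in brain and 34.6, 54.5 and 69.2 in muscle.

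Of 19 microglia and macrophage genes, 12 were higher in muscle and 2 in brain (median -1.04), against 29.5% and 25.3% of all genes. The tissue-macrophage receptors Lyve1 (-3.76 ± 0.41) and Mrc1 (-3.10 ± 0.36) were higher in muscle, and so was Tmem119 (-2.35 ± 0.25), a microglial marker also made by bone and mesenchymal cells. Trem2, a receptor of microglia and osteoclasts, was higher in brain (1.33 ± 0.20). The fractalkine receptor Cx3cr1 was also called higher in brain (1.27 ± 0.44, adjusted p = 0.0399 by limma and 0.140 with the block). Cx3cr1 read 840, 1060.2 and 274 in muscle and did not pass without any 1 of the brain arrays (adjusted p = 0.0571 to 0.0914). Its other probe gave 1.80 ± 0.67 and did not pass (adjusted p = 0.0515). Neither brain call was repeated in the KO arrays, where 0 genes of the list were called higher in brain and 13 in muscle. Interferon-response genes were higher in muscle in 19 of 22 cases (median -2.07), led by the antiviral enzyme Oas2 at -3.75 ± 0.34 (62.7 to 66.8 in brain and 1219, 637 and 559 in muscle).

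Blood transcripts differed less evenly. Of 12 erythroid genes, 4 were higher in muscle and 8 did not pass, a share close to the 29.5% of all genes. Among the KO arrays 6 of the 12 were called higher in muscle. The alpha-globin Hba-a1 read 71431 to 92830.1 in brain and 227044, 157734 and 446675 in muscle (-1.85 ± 0.38), and the third muscle array was the highest. Of 17 neutrophil genes, 10 were higher in muscle and 2 in brain, the latter being Prtn3 and Mmp9. Hypoxia-response genes passed in 4 of 20 cases, all higher in muscle and fewer than the 29.5% of all genes (median -0.80, and 0.02 after ribosomal protein centring). This low count was not seen in the KO arrays. There 10 of the 20 were called higher in muscle and 1 in brain, against 31.3% and 28.1% of all genes. Egln3, an oxygen-sensing hydroxylase, read 205 and 219.5 on the first 2 brain arrays, 582 and 647 on the others, and 984, 3215 and 13176 in muscle.

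Skin transcripts were called in both directions. Of 21 keratinocyte markers, 4 were higher in brain and 4 in muscle, fewer than the 25.3% and 29.5% of all genes. Krt1, a keratin of the upper epidermis, read 516, 797, 452 and 638 in brain and 3.52, 11.1 and 2.78 in muscle, at least 13.8-fold higher, and Lor, loricrin of the cornified envelope, read 2624 to 4208 in brain and was higher there without overlap (5.78 ± 0.44). The 2 other calls in favour of brain were weak: Krt77 (1.95 ± 0.41) lay at or under background on all 7 arrays, and Trp63 (0.92 ± 0.17) had 3 other probes called higher in muscle (-5.81, -2.55 and -3.68). The 4 markers called higher in muscle were Krt79 (-1.33 ± 0.32), Krt5 (-1.26 ± 0.42), Pkp1 (at least 1.98-fold, above background on 2 muscle arrays) and Sprr1a (at least 1.11-fold, above background on 1). With the block Krt5 (adjusted p = 0.134), Pkp1 (adjusted p = 0.0676) and Sprr1a (adjusted p = 0.0865) did not pass. Krt5 also failed without any 1 array other than brain array 2 (adjusted p = 0.0603 to 0.101), and Pkp1 without muscle array 3 (adjusted p = 0.0528). The summed intensity of the list was 12491 to 16903 in brain and 4915 to 5997 in muscle.

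Position-specifying Hox genes were higher in muscle in 24 of 38 cases and in brain in 2, against 29.5% and 25.3% of all genes. The KO arrays gave 15 and 2. Hoxc9 read 3.21 to 3.55 in brain and 1311, 1700.3 and 987 in muscle, at least 50.5-fold higher, and Hoxd8 was at least 32.3-fold higher. The 2 genes higher in brain were of anterior groups, Hoxb5 (1.93 ± 0.40) and Hoxd3 (2.82 ± 0.73).

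Of 26 imprinted genes tied to growth, 15 were higher in muscle and 5 in brain (median -1.13), against 29.5% and 25.3% of all genes. H19, a non-coding RNA of the Igf2 locus, read 13829, 19727, 15672 and 15178 in brain and 351378, 430223 and 454716 in muscle (-4.89 ± 0.16), and Plagl1, a zinc finger growth regulator, differed by -4.26 ± 0.17. Nnat, neuronatin, read 31211 to 78730.4 in brain and 93.0, 224 and 51.6 in muscle (8.73 ± 0.43), and Usp29 (4.64 ± 0.21) and Snrpn (5.39 ± 0.29), a neuronal spliceosome protein, were also higher in brain.

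Cell cycle and replication genes were higher in muscle in 18 of 29 cases and none in brain (median -1.25), against 29.5% and 25.3% of all genes. Ribosomal protein centring left 8 higher in muscle and 1 in brain (median -0.43), and the KO arrays gave 11 and 0. The replication factors Mcm3 (-1.88 ± 0.25) and Cdt1 (-1.69 ± 0.19) and the mitotic kinase Aurkb (at least 1.55-fold, above background on 2 of 3 muscle arrays) were among the 18. Cdk1, the kinase that drives mitosis, lay at or under background on all brain arrays by its chosen probe (3.18 to 11.1). That probe read 759, 1037 and 756 in muscle, at least 32.6-fold higher. Its other probes were also called higher in muscle, at -5.05 ± 0.17 and at only -0.98 ± 0.26 (adjusted p = 0.0129). The size of the Cdk1 difference therefore depends on the probe.

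The direction of ribosomal protein genes depends on the scale. On the main scale 44 of 74 were called higher in muscle and 1 in brain, 29 did not pass and the median was -0.52. Quantile normalization gave 20 higher in muscle and 19 in brain. Centring on these genes themselves gave 10 and 27, with a median of 0.30. That centring sets their mean to the same value on every array, so these counts cannot show their direction. Rpl3l, the muscle paralog of Rpl3, was at least 169-fold higher in muscle. Rpl3 itself was the 1 member higher in brain (0.44 ± 0.15; adjusted p = 0.0358, 0.0891 with the block), and did not pass without any 1 array other than muscle array 2 (adjusted p = 0.0535 to 0.0918). Proteasome genes mostly did not pass (26 of 39), with 12 higher in muscle, near the 29.5% of all genes, 1 in brain and a median of -0.13. Their direction depends on the scale: quantile normalization gave 9 higher in brain and 6 in muscle, and ribosomal protein centring 20 and 1, with a median of 0.69.

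**Figure D4:**
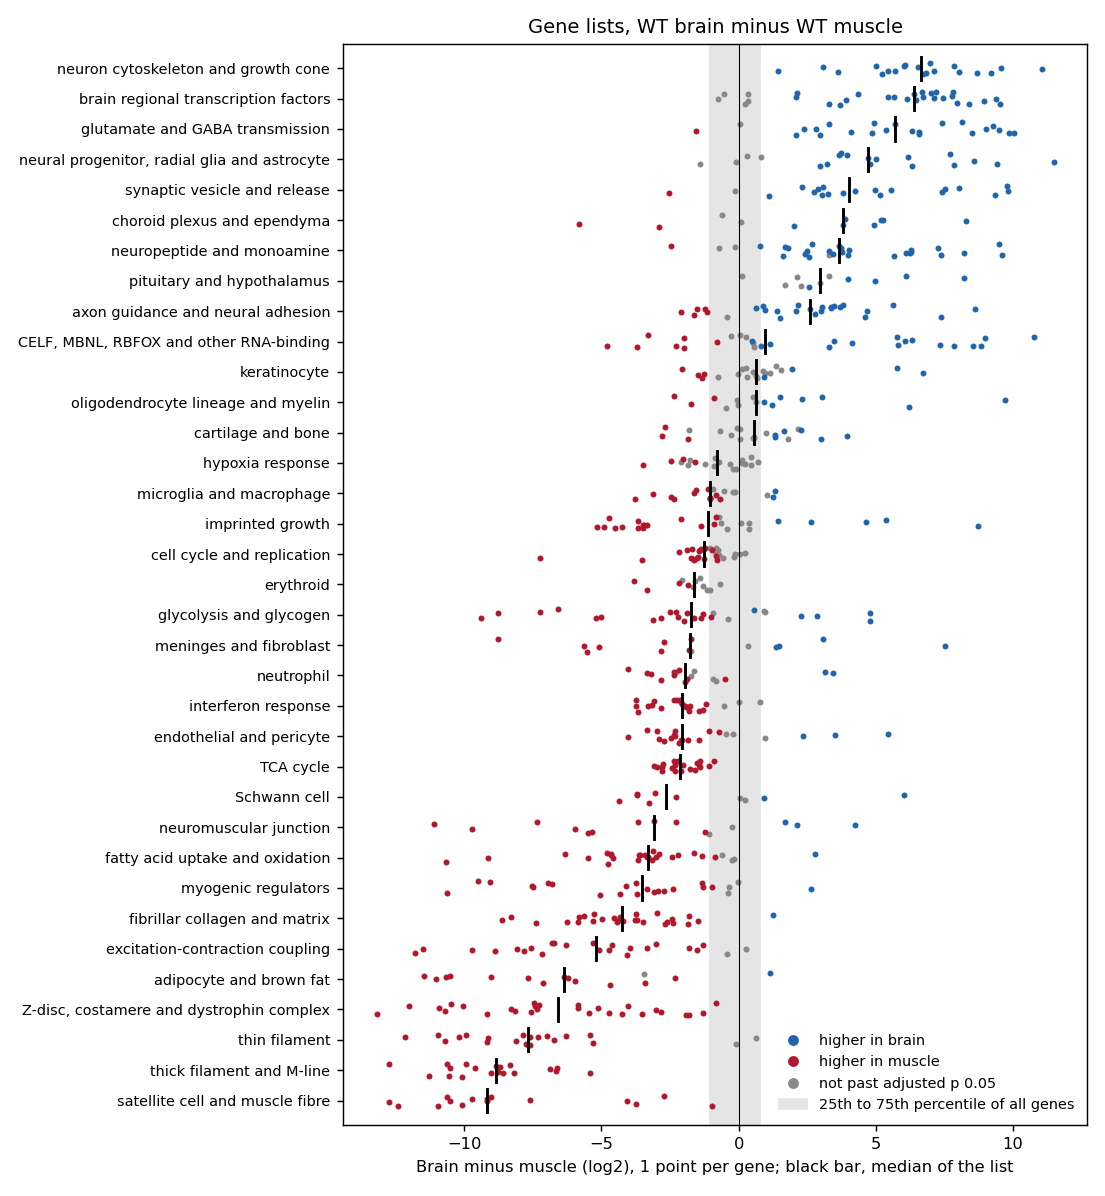
Brain minus muscle (log2) of each member of the system and cell-type lists is plotted as 1 point per gene, blue where higher in brain, red where higher in muscle and grey where not past an adjusted p of 0.05, with a black bar at the median of the list and a grey band over the range from the 25th to the 75th percentile of all genes. Medians run from 6.63 for the neuronal cytoskeleton to -9.19 for satellite cell and muscle fibre markers.

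The KO arrays gave the same picture in separate samples. Of the 5548 genes higher in WT brain, 5511 had the same direction in KO arrays and 5125 (92.4%) were called there in that direction. Of the 6463 genes higher in WT muscle, 6438 kept the direction and 5826 (90.1%) were called. In all, 28.1% and 31.3% of genes were called higher in brain and in muscle among KO arrays. One WT call was called in the opposite direction, Gchfr, a regulator of tetrahydrobiopterin synthesis, at 1.93 in WT and -1.56 in KO.

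The tissue difference itself differed between genotypes for 2 of 21893 genes in a limma model of all 14 arrays, and 676 genes had an unadjusted p under 0.05. Rab6b, a neuronal Golgi GTPase, was higher in brain by 7.74 in WT and by 4.85 in KO (difference 2.89 ± 0.21, adjusted p = 0.000112). It read 30078 to 40235 in WT brain and 138, 169 and 122 in WT muscle, and 913, 973 and 997 in KO muscle. Ppp1r14d, the other gene (adjusted p = 0.0269), was above background on the KO muscle arrays alone, where it read 179, 49.6 and 103; the other 11 arrays read 2.73 to 9.55, so no size is given for its difference. These 3 genes were named after their values were seen.

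**Figure D5:**
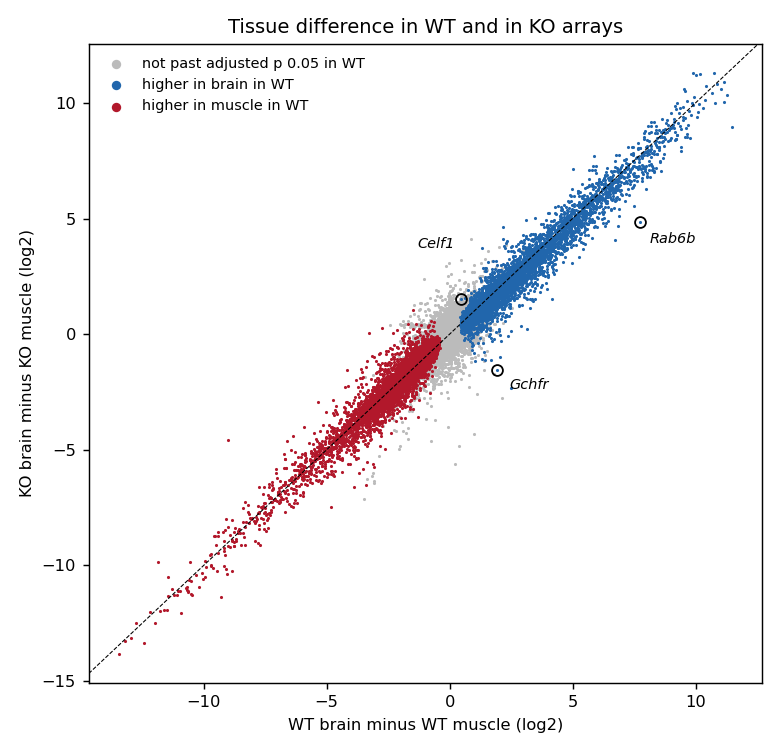
Brain minus muscle (log2) in the 7 KO arrays (y axis) is plotted against the same difference in the 7 WT arrays (x axis) for each gene, coloured by the WT call, with the dashed line marking equal values. Most called genes lie along the line, and Rab6b, Celf1 and Gchfr are circled.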

How the data were processed

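Per the labels' protocols, RNA from each sample was labelled with Cy3 and hybridised to 1-colour Agilent arrays read with Feature Extraction, in a version not stated there. The deposited values are intensities on a linear scale with no detection flags, so a background level was taken from receptor genes. Of 55681 probes, 30626 carry 1 gene symbol in the platform annotation and 25055 none; 129 values were blank. From these, log2 intensities were computed, the 75th percentile over named probes of each array subtracted, and for each gene the probe kept that was brightest on average across the 14 arrays. WT tissues were compared with limma 3.58.1 in R 4.3.3, tested on simulated data first. The gene symbols and promoters are those of RefSeq GRCm38.p6, to which 30332 named probes matched. An exact permutation test of 3 against 4 arrays cannot reach the threshold. Nothing says that replicates were separate animals, so p-values may measure technical spread only. Arrays with the same number in brain and muscle deviated together (r = 0.118, 0.230 and 0.208 over genes), so a fit with the number as a block was also made. Brain array 4 and muscle array 3, which have different numbers, also deviated together (r = 0.175). The remaining pairs with different numbers gave r of -0.190 to 0.046. These values do not establish that arrays with the same number share an animal.

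The comparison, the gene lists and the rules for naming genes were chosen with earlier results of these data known. Genes were named where they were Celf1, had the 10 largest differences or lower bounds per direction, led a list or family by p, ran against a list, or were members of the isoform pairs; not every gene of the list and family parts of this rule is described. Others (Snap25, Gh, Pomc, Prl, Gchfr, Rab6b, Ppp1r14d, Celf2, Celf6 and the remaining keratinocyte calls) were chosen after their values were seen. Alternatives changed the scaling, pseudocount, filter, probe rule, moderation, weights and samples. The number of arrays limits the precision.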

Additional observations from a re-analysis of the deposited data

Results flagged for a closer look

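For the 4 WT brain arrays, the gap between an extreme level and its nearest neighbour was divided by the whole range. Of 237 sets of levels, 21 exceeded the 95% critical value of 0.829, and chance alone gives about 1 in 20. Groups of 3 muscle arrays were not examined.

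The second brain array stood above the others for Cacng1 (gap over range 0.868) and Myom2 (0.846). The same held for Ampd1 (0.847), Atp1b4 (0.837) and Ckmt2 (0.897), but all 4 brain readings of these 3 genes lay at or under background, so the gaps have no order of expression behind them. It was low for Cox8a (0.861), Epha5 (0.929), Gria2 (0.996), Kcna4 (0.869), Rtn1 (0.836), Sema6d (0.830), Smyd1 (0.864) and Sult4a1 (0.935). Its mean level was high for the fibrillar collagen and matrix list (0.880) and low for the imprinted list (0.969).

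The fourth brain array was high for Gh (0.938), Pomc (0.982), Pdgfra (0.902) and Tac1 (0.886). The third was high for Crh (0.843) and the first for Slc25a5 (0.941).

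The brain minus muscle difference differed between WT and KO arrays, by the interaction term of the limma model, by 2.89 for Rab6b (adjusted p = 0.000112) and by 5.23 for Ppp1r14d (adjusted p = 0.0269). The value for Ppp1r14d is taken against readings under background on all arrays but those of KO muscle, so it is no measured size.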

How the results depend on the processing

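The 2 counts of called genes stayed within 1.5 times of the reported ones except under ribosomal protein centring (11363 higher in brain, 3550 in muscle) and when tested against a 2-fold difference (2996 and 2968). Leaving out 1 array at a time gave 5110 to 5756 and 5773 to 6453. With the replicate block 5218 and 5949 genes were called, and among named genes the call changed only for those given with a blocked p above. Of 203 named genes, 160 kept their direction and side of the threshold under every alternative; over 4865 values, 120 lost the call, 21 gained it and 24 reversed. Calls for Ldhb and Rbfox1 were lost without brain array 3 or 4, Tnc without muscle array 1 or 3, and Ampd2 and Ldha without muscle array 2, while Pomc passed without brain array 4 and Actb and Cox6a1 without muscle array 1. With the mean of a gene's probes the direction reversed for Celf1 (-0.15), Elavl1 (0.23), Epha5 (2.83), Hk1 (1.35), Rab3c (2.06), Scn8a (2.13) and Trp63 (-2.78). Snap25 reversed without scaling (0.0869), with quantile normalization (0.20) and under ribosomal protein centring (0.69, adjusted p = 0.00564). Cox8a reversed with quantile normalization (0.10) and ribosomal protein centring (0.30), and Cox6a1 with array weights (-0.12), median centring (-0.0445) and without muscle array 2 or 3; over arrays left out in turn it ran from -0.29 to 0.55. Gh reversed with brain arrays 1 and 2 only (-0.0873), and Gchfr in KO arrays (-1.56). Ppp1r14d reversed with 16 or 50 added (-0.0737, -0.15), in KO arrays (-4.85), with the replicate block (-0.0013), with brain arrays 1 and 2 only (-0.0358) and without brain array 4; over arrays left out in turn it ran from -0.0013 to 0.59. List medians reversed for hypoxia with array weights (0.12) and ribosomal protein centring (0.0201), for ribosomal proteins with quantile normalization (0.0456) and their own centring (0.30), and for the proteasome without scaling (0.08), with quantile normalization (0.028) and under ribosomal protein centring (0.69). Under their own centring the ribosomal proteins are the reference, so that value cannot show their direction. With 16 or 50 added, 15 and 19 of 34 list medians moved by at least the larger within-tissue SD of the list's mean level. The cause was not tested, and levels near background limit what dim genes can show.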
